A study of Homo sapiens with 6 samples.

Results

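The BTG, TOB and ZFP36 mRNA decay factors are a group of 8 genes picked by name: BTG1, BTG2, BTG3, TOB1, TOB2, ZFP36, ZFP36L1 and ZFP36L2. The table of normalized counts listed 7 of them among its 19823 genes, and ZFP36L1 was not analysed here. Of the 7 listed genes, 5 were tested (BTG1, BTG2, BTG3, TOB1 and TOB2), and 2 (ZFP36 and ZFP36L2) had too few reads for the limit of more than 5 reads in at least 4 samples. The 6 samples were poly(A) RNA-seq libraries of glutamatergic neurons (iNeurons), obtained by doxycycline-inducible NGN2 expression from the human pluripotent stem cell line WTc11. The iNeurons of 3 samples were untreated, and those of the other 3 were given isoproterenol, an agonist that raises cAMP. All 6 samples carried a CRISPR interference (CRISPRi) knockdown of RBM12, an RNA-binding protein, made with a single guide RNA in a clonal dCas9-KRAB line. They came from the parental line, which has only its native beta-2-adrenergic receptors, the receptors that isoproterenol activates. The authors describe the level of these receptors as low and the resulting cAMP and transcriptional responses as very modest. For their main neuronal RNA-seq they used a derived line that overexpressed the receptor, and those samples were not analysed here. The labels give neither the dose nor the duration of isoproterenol for these samples. Samples with a control guide were not analysed here, so each result describes isoproterenol within the knockdown.

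BTG and TOB proteins share a conserved domain that binds the CNOT7 and CNOT8 deadenylases of the CCR4-NOT complex, which shortens the poly(A) tail and so starts the decay of an mRNA. The TOB proteins also bind the cytoplasmic poly(A)-binding protein PABPC1, and BTG2 and its relatives are known as antiproliferative genes that many stimuli induce. ZFP36 proteins recognise AU-rich elements in the 3′ ends of short-lived mRNAs, among them immediate early gene mRNAs, and recruit the same CCR4-NOT complex. The comparison asked which of these decay factors changed with isoproterenol.

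With isoproterenol, BTG2, BTG1 and TOB2 were each higher in all 3 pairs of same-numbered samples, as 18.5% of all genes tested were, while the log2 fold changes of TOB1 and BTG3 were -0.04 and -0.03. BTG2 had the highest log2 fold change of the tested members at 0.49 (SE 0.12), followed by BTG1 at 0.29 (SE 0.078) and TOB2 at 0.24 (SE 0.066). None (0) of the 5 tested members passed FDR 0.05 in the limma fit without the pairs, in which 0.0165% of all 18130 genes passed. By edgeR and by DESeq2 without the pairs the count was also 0, and 3 members had an unadjusted limma p under 0.05, as did 7.68% of all genes tested. With the replicate number as a block, the same 3 members passed as higher, against 2.82% of all genes. With that block edgeR also passed these 3, whereas DESeq2 passed 0, with adjusted p-values of 0.058 for BTG2, 0.168 for BTG1 and 0.332 for TOB2. ZFP36 and ZFP36L2 had at most 9 reads in any sample. In bulk samples, a change in RNA per cell and a change in the share of cells that express a gene cannot be told apart.

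The sequences upstream of BTG1, BTG2 and TOB2 are shown because these were the members that passed with the replicate block. Each runs 5′ to 3′ on the strand of its gene, in RefSeq sequence of GRCh38.p14, and ends just before the annotated gene start. Capitals mark TGACG or its reverse complement CGTCA, the short form of the cAMP response element (CRE), the DNA element bound by the cAMP-activated factor CREB.
BTG1, chr12:92145847-92146096, minus strand: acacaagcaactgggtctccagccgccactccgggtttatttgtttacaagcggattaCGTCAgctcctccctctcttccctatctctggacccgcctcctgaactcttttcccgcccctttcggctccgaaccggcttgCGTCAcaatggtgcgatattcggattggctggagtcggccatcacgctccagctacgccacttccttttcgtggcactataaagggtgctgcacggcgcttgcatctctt
BTG2, chr1:203305269-203305490, plus strand: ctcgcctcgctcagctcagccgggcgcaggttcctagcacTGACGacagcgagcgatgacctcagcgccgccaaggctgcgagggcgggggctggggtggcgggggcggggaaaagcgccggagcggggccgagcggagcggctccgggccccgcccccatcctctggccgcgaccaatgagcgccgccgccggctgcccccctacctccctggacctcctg
TOB2, chr22:41446802-41447051, minus strand: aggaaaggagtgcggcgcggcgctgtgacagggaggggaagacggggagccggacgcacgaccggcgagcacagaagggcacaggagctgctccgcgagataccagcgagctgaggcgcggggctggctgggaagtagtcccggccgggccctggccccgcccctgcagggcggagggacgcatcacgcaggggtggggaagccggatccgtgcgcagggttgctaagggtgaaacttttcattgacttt

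RefSeq promoter entries were found for 6 of the 7 listed members, and the 250 bases before each RefSeq start were searched on both strands. BTG1 held 2 short CREs on the strand opposite to the gene, 192 to 188 and 110 to 106 bases before the start. BTG2 held 1 short CRE in the sense direction, 210 to 206 bases before its RefSeq start, and the TOB2 window held none. The BTG2 sequence shown stops 28 bases short of that start, at the GENCODE gene start, whereas those of BTG1 and TOB2 end directly before both starts. Of 35116 RefSeq promoters, 21.2% held at least 1 short CRE, so most of the 250-base windows lacked it. The longer palindrome TGACGTCA, which contains a short CRE on each strand, was in 1.65% of promoters and in none of the BTG1, BTG2, BTG3, TOB1, TOB2 and ZFP36 windows. Among the tested members that did not pass, the BTG3 window held no short CRE, and TOB1 held 1 before its second RefSeq start, 87 to 83 bases upstream. ZFP36 held none. BTG1 was the only member of these 6 with the letters TATAAA, 33 to 28 bases before its start, which 10.7% of promoters held. A match of letters is a description and not a measured site, and no binding was measured.

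BTG2 (ENSG00000159388; chr1:203305491-203309602, plus strand, GRCh38) encodes an antiproliferative adaptor of the CCR4-NOT deadenylases. In replicate order, the untreated samples held 293.4, 357.1 and 251.4 normalized counts and the isoproterenol samples 360.2, 447.5 and 453.4. The groups did not overlap, but untreated replicate 2 and isoproterenol replicate 1 lay almost at the same level. Its mean went from 300.6 ± 53.2 to 420.4 ± 52.2 normalized counts (SD, n = 3 samples each), with a 95% interval of the log2 fold change from 0.23 to 0.75. The difference was not past FDR 0.05 without the pairs (limma adjusted p = 0.273) and was past it with the replicate block (limma adjusted p = 1.78e-05, interval 0.32 to 0.66). Within pairs 1, 2 and 3 the log2 differences were 0.29, 0.32 and 0.85, so pair 3, which held the lowest untreated and the highest isoproterenol value, was well above the others. Without pair 3, the blocked log2 fold change was 0.31 (limma adjusted p = 0.0557), which is no longer past the threshold. Without untreated replicate 2, the fit without the pairs gave 0.62 (limma adjusted p = 0.025). BTG2 varied more between replicates than counting error alone would give: its coefficient of variation was 17.7% in the untreated samples, against 5.80% from the number of reads. No other annotated gene shared its exons.

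BTG1 (ENSG00000133639; chr12:92140278-92145846, minus strand) encodes the closest relative of BTG2. In replicate order, the untreated samples held 650.5, 571.9 and 539.0 normalized counts and the isoproterenol samples 760.3, 703.5 and 682.1. Replicate 1 was the highest and replicate 3 the lowest of both groups, and the groups did not overlap. Its mean went from 587.1 ± 57.3 to 715.3 ± 40.4 (SD, n = 3 samples each), and the 95% interval of the log2 fold change was 0.12 to 0.45. Its 3 pairs lay close together, at 0.22, 0.30 and 0.34. The limma adjusted p was 0.273 without the pairs and 5.13e-04 with the replicate block (interval 0.17 to 0.41), and with any single pair left out the blocked value ranged from 0.0016 to 0.021. BTG1 shares 503 exonic bases with the non-coding gene LINC01619 on the same strand and 274 with its divergent transcript BTG1-DT (ENSG00000245904) on the opposite strand. Reads in the bases shared with LINC01619 cannot be assigned to 1 gene, and LINC01619 itself was not analysed here. BTG1-DT ranged from 8.71 to 15.4 normalized counts over the 6 samples.

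TOB2 (ENSG00000183864; chr22:41433494-41446801, minus strand) encodes a BTG-domain protein that also binds PABPC1. In replicate order, the untreated samples held 678.7, 750.9 and 681.7 normalized counts and the isoproterenol samples 809.2, 848.8 and 827.8. All isoproterenol values were above all untreated ones. Its mean went from 703.8 ± 40.8 to 828.6 ± 19.8 (SD, n = 3 samples each), with a 95% interval of the log2 fold change from 0.099 to 0.37. The pairs gave 0.25, 0.18 and 0.28. The limma adjusted p was 0.299 without the pairs and 0.00283 with the replicate block (interval 0.13 to 0.35), and 0.0641 with the block when pair 3 was left out. No other annotated gene shared its exons.

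**Figure D1:**
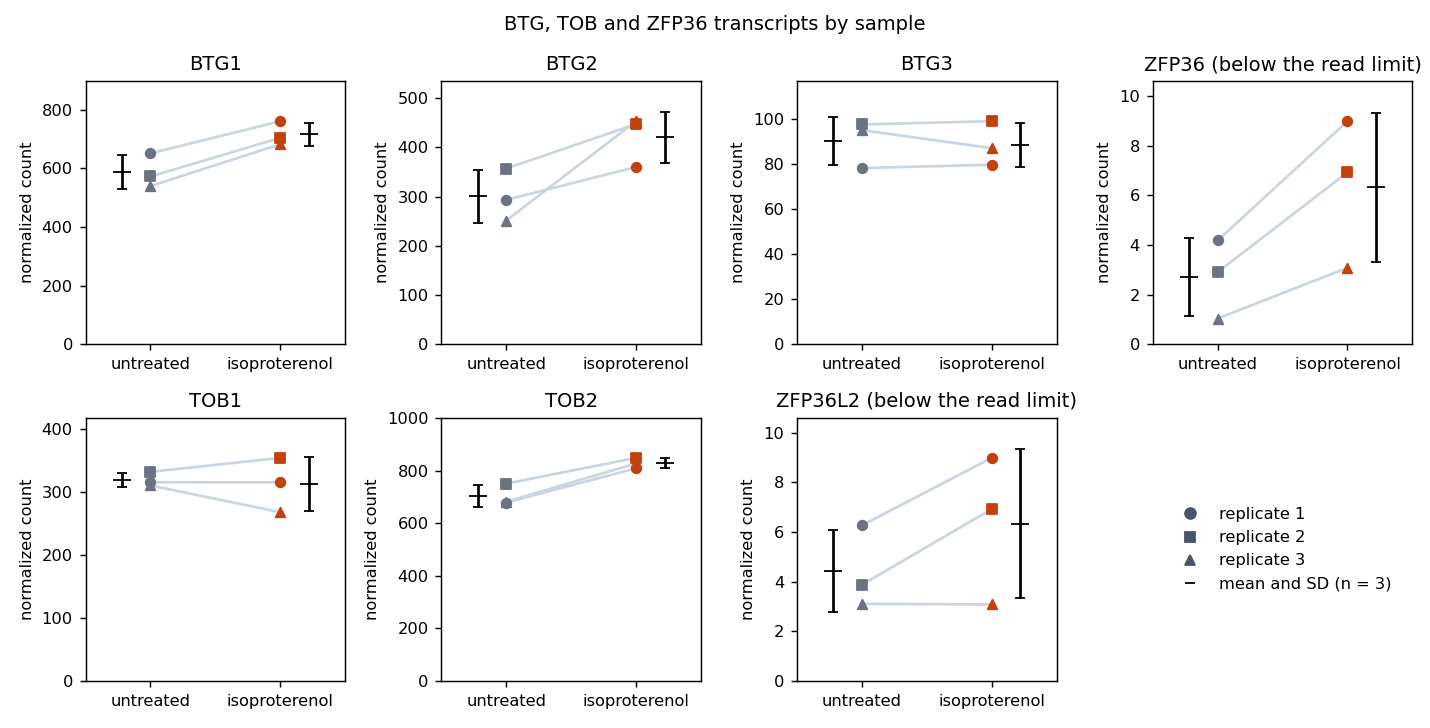
Normalized counts of the 7 listed members in each sample, untreated (grey) and isoproterenol (orange), on axes that start at 0. Symbols give the replicate number, lines join same-numbered samples, and the black bars are the mean and SD of 3 samples. BTG1, BTG2 and TOB2 lie higher in every isoproterenol sample than in any untreated one, whereas the groups overlap for BTG3, TOB1, ZFP36 and ZFP36L2.

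The groups thus did not overlap in 3 of the 5 tested members, all higher with isoproterenol, against 6.73% of all genes tested. An exact permutation test of the 3 against 3 samples gave p = 0.1 for each of BTG1, BTG2 and TOB2, the smallest p this design allows (two-sided). Any gene whose groups do not overlap gets this p, so the test adds nothing to the lack of overlap. The median log2 fold change of the 5 tested members was 0.24, against 0.0015 over all genes tested, of which 50.5% were higher.

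TOB1 (ENSG00000141232; chr17:50862223-50867978, minus strand) encodes the paralogue of TOB2. In replicate order, the untreated samples held 315.3, 331.9 and 310.3 normalized counts and the isoproterenol samples 315.3, 354.1 and 267.7. The isoproterenol samples lay on both sides of the untreated ones. The means were 319.2 ± 11.3 and 312.4 ± 43.2 (SD, n = 3 samples each), the log2 fold change was -0.04 (SE 0.10), and its 95% interval ran from -0.26 to 0.18 (limma adjusted p = 0.957). With the replicate block the interval was -0.21 to 0.13 (limma adjusted p = 0.886). The sign rests on isoproterenol replicate 3: without that sample the log2 fold change was 0.066, and the pairs gave -0.00, 0.09 and -0.21. TOB1 shares 281 exonic bases, 11.2% of its own, with TOB1-AS1 on the opposite strand. The library kit was directional, but whether the counting used the strand is not given in the sources used here, so reads of the 2 genes may be mixed. TOB1-AS1 was counted at 194.2, 180.0 and 170.7 in the untreated and 204.6, 197.2 and 212.3 in the isoproterenol samples (limma adjusted p = 0.753, and 0.463 with the block).

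BTG3 (ENSG00000154640; chr21:17593653-17612945, minus strand) encodes a more distant BTG family member. In replicate order, the untreated samples held 78.3, 97.7 and 95.2 normalized counts and the isoproterenol samples 79.8, 99.2 and 87.2. Same-numbered samples were near each other, and replicate 1 was the lowest in both groups. The means were 90.4 ± 10.5 and 88.7 ± 9.77 (SD, n = 3 samples each), the log2 fold change was -0.03 (SE 0.16), and its 95% interval was -0.37 to 0.32 (limma adjusted p = 0.982, and 0.964 with the block). At this depth a change within that interval was not detectable: the coefficient of variation of the untreated samples, 11.7%, was close to the 10.6% that counting error gives. BTG3 shares 326 exonic bases with BTG3-AS1 on the opposite strand, which had between 1 and 11 reads per sample.

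**Figure D2:**
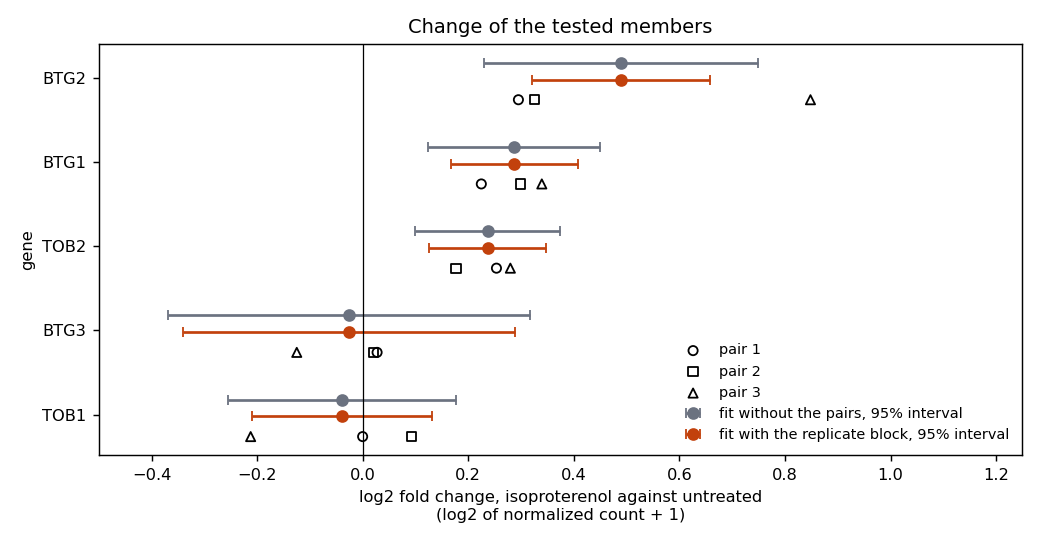
Log2 fold change of the 5 tested members, isoproterenol against untreated, on the log2 (normalized count + 1) scale. Circles with bars give the fitted value and 95% interval without the pairs (grey) and with the replicate block (orange), and open symbols the 3 pairs. The intervals of BTG2, BTG1 and TOB2 lie above 0 in both fits, those of BTG3 and TOB1 include 0, and pair 3 of BTG2 stands apart at 0.85.

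Paralogues were also set against each other within each sample, which removes the scaling of the libraries. The ratio of TOB2 to TOB1 normalized counts was 2.15, 2.26 and 2.20 in the untreated samples and 2.57, 2.40 and 3.09 in the isoproterenol samples, so the groups did not overlap. The ratio of BTG2 to BTG3 was 3.75, 3.65 and 2.64 in the untreated samples and 4.51, 4.51 and 5.20 in the isoproterenol samples, again without overlap. TOB2 and BTG2 did not overlap on their own either, so these ratios are no separate support. How often ratios of other genes separate was not tested. The ratio of BTG1 to BTG3 was 8.31, 5.85 and 5.66 in the untreated samples and 9.53, 7.09 and 7.82 in the isoproterenol samples, which overlapped. The mean log2 difference between the groups was 0.28 for TOB2 to TOB1, 0.52 for BTG2 to BTG3 and 0.31 for BTG1 to BTG3. The ratio of BTG2 to BTG1 was 0.451, 0.624 and 0.466 in the untreated samples and 0.474, 0.636 and 0.665 in the isoproterenol samples. These overlapped, and pairs 1 and 2 of BTG2 to BTG1 differed by only 0.071 and 0.027 on the log2 scale.

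**Figure D3:**
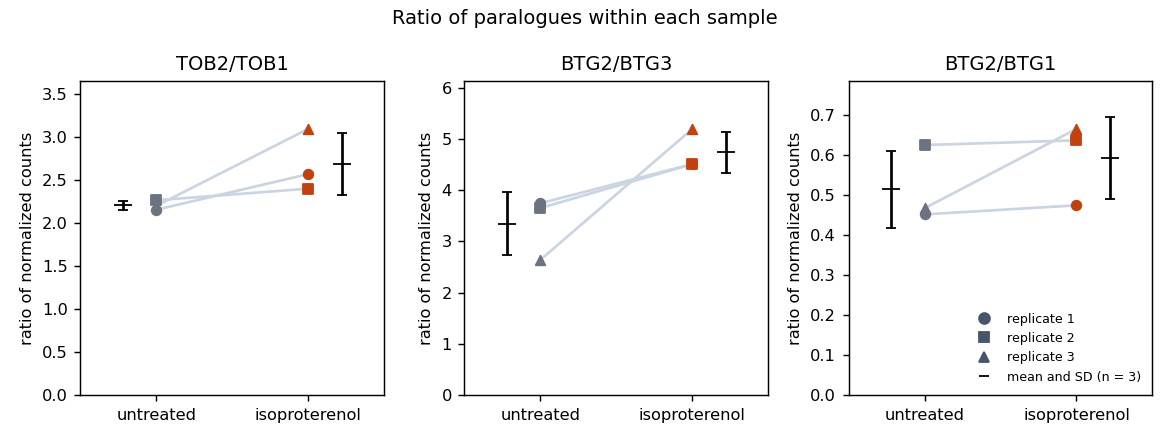
Ratio of normalized counts between paralogues in each sample, untreated (grey) and isoproterenol (orange), with lines between same-numbered samples and the mean and SD of 3 samples in black. The TOB2/TOB1 and BTG2/BTG3 ratios are higher in every isoproterenol sample than in any untreated one, and the BTG2/BTG1 ratios overlap. The BTG1/BTG3 ratios, which also overlap, are not drawn.

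ZFP36 (ENSG00000128016; chr19:39406847-39409412, plus strand) encodes tristetraprolin, the founding AU-rich element binding protein of its family. It had 4, 3 and 1 reads in untreated replicates 1 to 3 and 9, 6 and 3 reads in isoproterenol replicates 1 to 3. The isoproterenol sample was higher in each of the 3 pairs, but isoproterenol replicate 3 lay below untreated replicate 1. Summed over the group, 8 untreated reads (exact Poisson 95% interval 3.45 to 15.8) stood against 18 isoproterenol reads (10.7 to 28.4), a depth-adjusted ratio of 2.34 with an exact 95% interval of 0.968 to 6.22. These intervals cover counting error only, and a ratio of 1 lies within the last. ZFP36L2 (ENSG00000152518; chr2:43222402-43226606, minus strand), a paralogue with the same zinc finger domain, had 6, 4 and 3 reads in the untreated and 9, 6 and 3 in the isoproterenol samples. Its ratio was 1.44 (0.667 to 3.20), and no difference was detectable at this depth. The read limit was met in 2 samples for ZFP36 and in 3 for ZFP36L2. ZFP36L2 shares 826 exonic bases with an unnamed gene on the opposite strand (ENSG00000287387), which was not analysed here. Exact permutation tests over the samples gave p = 0.2 for ZFP36 and p = 0.5 for ZFP36L2 (two-sided, smallest possible p 0.1).

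Levels were compared between genes as normalized counts per kb of annotated exon. In the untreated iNeurons TOB2 was the highest at 162 ± 9.40 per kb, followed by TOB1 (127 ± 4.47), BTG1 (121 ± 11.8) and BTG2 (109 ± 19.3; SD, n = 3). The levels per kb of TOB1, BTG1 and BTG2 did not differ beyond their spread. BTG3 was at 39.2 ± 4.58 per kb, and ZFP36 and ZFP36L2 were at 1.37 ± 0.80 and 1.20 ± 0.45, which did not differ from each other. With isoproterenol the order of the levels per kb was TOB2 (191 ± 4.56), BTG2 (152 ± 18.9), BTG1 (147 ± 8.33) and TOB1 (124 ± 17.2), and BTG2 and BTG1 again lay within their spread. As a share of the summed level per kb of the 7 listed members, TOB2 took 27.9% to 29.9% in the untreated and 28.3% to 29.7% in the isoproterenol samples. The BTG2 share was 17.4% to 21.7% and 20.4% to 25.6%, whereas the TOB1 share was 22.1% to 23.4% and 16.5% to 20.3%. A share depends on every member of the sum, and the TOB1 level itself was 127 ± 4.47 and 124 ± 17.2 per kb. ZFP36 and ZFP36L2 each stayed under 1% of the sum in every sample, so nearly all transcripts of the listed decay factors came from BTG and TOB genes.

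**Figure D4:**
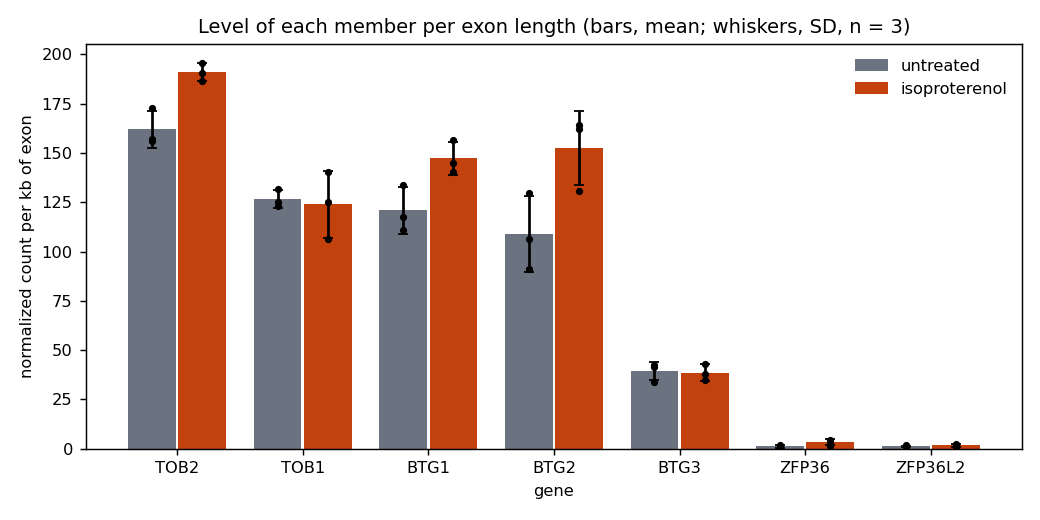
Normalized counts per kb of annotated exon for the 7 listed members, untreated (grey) and isoproterenol (orange). Bars are means, whiskers SD and points the 3 samples of each group. TOB2 is the highest in both groups at 162 and 191 per kb, and ZFP36 and ZFP36L2 are below 4 per kb.

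The pattern of each member over the 6 samples was compared with that of 11587 genes whose mean normalized count was 100 or more, as a description. The genes most like BTG2 were ARAP1 (Pearson r = 0.988), KLF10 (0.981) and PCBP4 (0.980). For BTG1 they were TRIM7 (0.997), SYT10 (0.993) and LIG3 (0.992), and for TOB2 CACNG7 (0.995), NYNRIN (0.985) and MAPK7 (0.980). TOB1 was followed most closely by PIGM (0.998), ZNF664 (0.987) and BOD1 (0.987), and BTG3 by SETD6 (0.999), ADGRV1 (0.983) and MFSD3 (0.982). For the sparsely counted ZFP36 the closest reported here were HCFC2 (0.983) and CAT (0.982), and for ZFP36L2 FAXC, AC005618.1 and C2orf49 (0.988 to 0.992). Among the members themselves, TOB2 and BTG2 were the most alike (r = 0.937), TOB2 and BTG1 had r = 0.700, BTG1 and BTG2 r = 0.637, and TOB2 and TOB1 r = -0.00. The 6 points share libraries and treatment, and these r values are the highest of the 11587 ranked for each member.

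The CCR4-NOT complex, which the BTG, TOB and ZFP36 proteins recruit, showed no change that passed. None (0) of its 11 tested genes passed FDR 0.05 in limma without or with the replicate block, 1 had an unadjusted p under 0.05, and the log2 fold changes ran from -0.09 to 0.10 around a median of -0.01. The largest was that of CNOT4, an E3 ubiquitin ligase that associates with the complex, at 0.10 (limma adjusted p = 0.772, and 0.436 with the block). CNOT7 and CNOT8, the deadenylases that BTG and TOB proteins bind, had log2 fold changes of 0.09 and -0.01 (limma adjusted p = 0.629 and 0.982, and 0.0652 and 0.957 with the block). Of 9 other deadenylases and poly(A)-binding proteins 1 passed with the block, in the lower direction: PABPC1, the partner of the TOB proteins, at -0.08 (limma adjusted p = 0.0366 with the block, 0.72 without).

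Of 16 genes of decapping and 5′ decay 1 passed with the block, LSM7 of the LSM ring, which fell by 0.21 on the log2 scale (limma adjusted p = 0.00239 with the block, 0.364 without). Of 14 RNA exosome and SKI complex genes 1 passed with the block, the core subunit EXOSC5, which fell by 0.34 (limma adjusted p = 0.0429 with the block, 0.511 without). Of 24 other RNA-binding proteins that set mRNA stability, 3 passed higher and 1 lower with the block. Among them were ZC3H12C (0.33), of the regnase family of RNA-degrading proteins, the neuronal stabiliser ELAVL4 (0.11) and HNRNPD (-0.10), another AU-rich element binding protein. Their limma adjusted p with the block ranged from 6.07e-04 to 0.0209. Of 17 kinases, phosphatases and partners that act on these factors 0 passed in limma without or with the block, 0 had an unadjusted p under 0.05, and the largest change was that of AKT2 at 0.14. The list medians of these 5 groups beyond CCR4-NOT lay between -0.03 and 0.01.

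Messenger RNAs known for AU-rich elements, the class that ZFP36 proteins bind, were measured as a list of 24 genes, of which 15 had values and were tested. With the replicate block 7 passed as higher, against 2.82% of all genes tested, and 0 as lower. A positive log2 fold change was found in 12 of 15, against 50.5% of all genes tested, and the list median was 0.13. The subunit of the AP-1 transcription factor FOS was at 535.7, 648.3 and 679.6 normalized counts in the untreated samples and 1219, 1649 and 2338 in the isoproterenol samples, a log2 fold change of 1.44 (limma adjusted p = 0.0268 with the block). The others with the largest changes were IER3 (0.79), JUNB (0.76), the cell cycle inhibitor CDKN1A (0.42), IER2 (0.31) and cyclin D1, CCND1 (0.24). MYC (0.00), HIF1A (0.04) and BCL2 (-0.01) on the same list did not pass. None (0) of the 15 passed without the block, in which their limma adjusted p was 0.116 or more. In that fit 6 had an unadjusted p under 0.05, against 7.68% of all genes tested. Several of these genes are immediate early genes, whose list of 14 tested genes had 1 past FDR 0.05 without and 11 with the block, and transcription and decay of an mRNA cannot be told apart from its level.

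Over the 7 mRNA decay lists together, 106 genes other than the members were tested. Of these 0 passed FDR 0.05 in limma without the pairs, and 13 had an unadjusted p under 0.05, against 7.68% of all genes tested. With the replicate block 14 (13.2%) passed, against 4.88% of all genes tested. Among those 14, 7 were on the list of 15 AU-rich element mRNAs, several of them immediate early genes. The other stability RNA-binding proteins held 4. Other deadenylases and poly(A)-binding proteins, decapping and exosome held 1 each, and CCR4-NOT and the kinases, phosphatases and partners 0. By edgeR without the pairs 0 of the 106 passed, and by DESeq2 2 did.

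**Figure D5:**
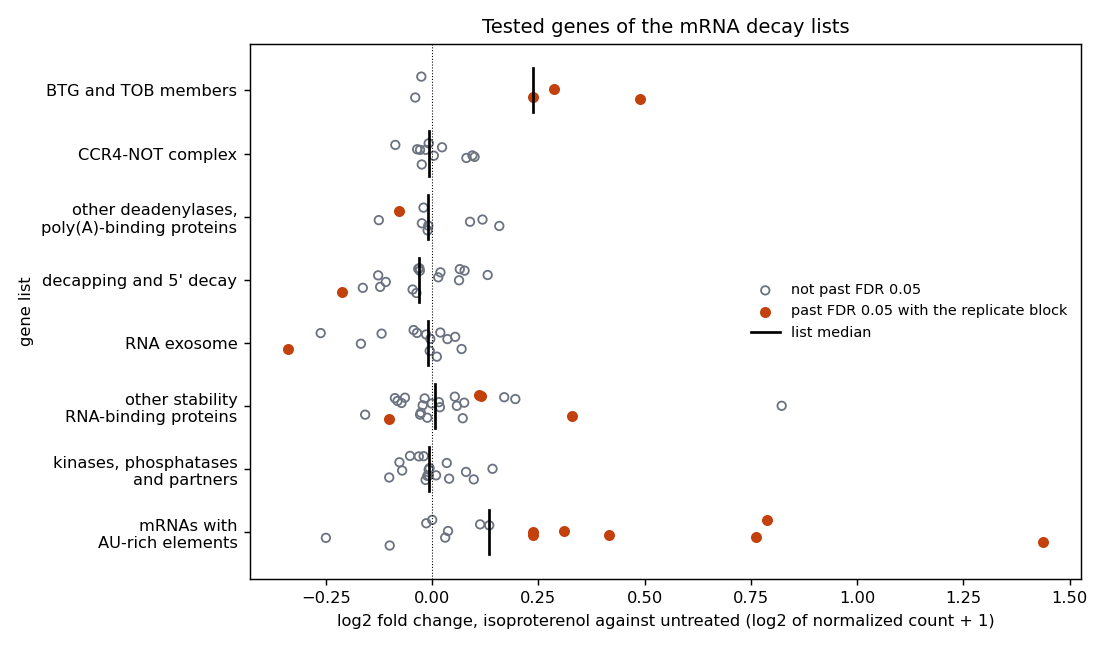
Log2 fold change of each tested gene of the mRNA decay lists, isoproterenol against untreated, on the log2 (normalized count + 1) scale. Filled orange points passed FDR 0.05 with the replicate block, open points did not, vertical black bars are list medians, and vertical position within a list carries no meaning. The 3 passing BTG and TOB members and 7 of the 15 AU-rich element mRNAs are filled to the right of 0, while the CCR4-NOT genes lie between -0.09 and 0.10.

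Depth ranged from 18116816 to 21488793 reads per sample and did not separate the groups, and mitochondrial genes took 3.44% to 4.54% of the reads. The targeted gene RBM12 was at 244.3, 278.7 and 266.9 normalized counts in the untreated and 194.6, 237.6 and 232.8 in the isoproterenol samples. It was lower in every isoproterenol sample than in any untreated one, with a log2 fold change of -0.25 (SE 0.11). Pairs 1, 2 and 3 gave -0.33, -0.23 and -0.20. The difference did not pass FDR 0.05 (limma adjusted p = 0.607, and 0.131 with the block). Without samples with a control guide, the extent of the knockdown cannot be seen here. RBM12 shares 575 exonic bases with CPNE1 on the same strand. The glutamatergic markers SLC17A6 and SLC17A7 were at means of 13442 and 3055 normalized counts in the untreated samples, and all 16 markers of the list were tested. Their summed level was 752880 to 794330 in the untreated and 733850 to 747070 in the isoproterenol samples, with GRIN1 higher and SYP, MAPT and NEFL lower past FDR 0.05 with the block. Most of that sum came from the neurofilament genes NEFL and NEFM, at untreated means of 289380 and 260500. TUBB3, on the same list, had an untreated mean of only 77.7. Gene by gene, 10 of the 16 markers had a positive log2 fold change, with a list median of 0.0022. For markers of other neurons, 5 had values and 0 passed in either fit, with 0 at an unadjusted p under 0.05. CHAT and TH, on that list, were at untreated means of 453 and 192. GAD1, GAD2 and SLC32A1 were at 17, 22 and 19. Of the pluripotent cell list 4 of 8 had values, summing to 46.6 to 58.5 in the untreated and 68.7 to 80.7 in the isoproterenol samples, with POU5F1 and SOX2 below 10. The 2 tested markers went in opposite directions. SALL4 went from a mean of 33.8 to 53.7 (limma adjusted p = 0.458, and 0.0722 with the block), and LIN28A from 16.2 to 13.2 (limma adjusted p = 0.881, and 0.765 with the block). Astrocyte markers (3 of 7 with values) summed to 3138 to 3469 and 3026 to 3361, and proliferation markers (4 of 8 with values) to 490.3 to 520.6 and 499.6 to 605.5. Nearly all of the astrocyte sum was SLC1A2, at an untreated mean of 3161, with AQP4 at 114.5 and S100B at 50.9. Of 14 stress genes, 2 passed higher and 1 lower with the block. Beside these and the glutamatergic markers, 4.88% of all genes tested passed with the block in either direction. The part of these markers in the changes of BTG1, BTG2 and TOB2 was not tested.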

How the data were processed

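Poly(A) RNA was sequenced from 3 untreated and 3 isoproterenol-treated samples, with groups and replicate numbers taken from the sample titles. The authors aligned reads to GRCh38 with STAR and counted them with featureCounts. For each gene in each sample, the authors deposited a signal: the read count divided by the sample's DESeq2 size factor, called normalized count here. Tool versions and the strand setting of the counting are not given in the sources used here. In each column 100% of values above 0 were whole multiples of 1 step (tolerance 0.01 reads), which gave back the reads, 18116816 to 21488793 per sample.

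Genes with more than 5 reads in at least 4 samples were tested (18130 of 19823) with limma 3.58.1 in R 4.3.3 (trended, robust), on log2(normalized count + 1), with Benjamini-Hochberg adjustment over all genes tested. Fold changes on this scale understate the change of low genes. All tests are two-sided. edgeR 4.0.16 (quasi-likelihood) and DESeq2 1.42.0 were run on the recovered reads as alternatives, and called 3 and 23 genes. The other alternatives were TMM and total-count scaling, other filters and pseudocounts, left-out samples and the replicate block. The limma script was tested on simulated data.

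Both groups carry replicate numbers 1 to 3. After subtraction of the group mean, samples that share a number correlated over 11587 genes at 0.269, 0.493 and 0.388. Their average was 0.383, and that of the other 5 possible matchings ranged from -0.195 to 0.163. Each pair exceeded 0.1, the value set for treating the numbers as pairs. They were treated so in the pair differences and in the fits with the replicate block, which are alternatives. The main limma fit did not use the pairs. The labels do not say that replicates were separate cultures, so p-values measure the spread between these samples, which may be technical.

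Members and gene lists were chosen with earlier results of these data known, so nothing here is independent support for a pattern. Named genes are the members, RBM12, the genes of each pathway list past FDR 0.05 with or without the block (at most the 6 with the largest change, otherwise the 1 with the largest) and the 3 genes most like each member. The rule held 1 further gene that is not reported by name. CNOT7, CNOT8, MYC, HIF1A and BCL2 were named in addition, as were the overlapping genes. For microglia and blood markers 0 genes had values. Positions, overlaps and exon lengths are from GENCODE release 44, in which 19742 gene identifiers were found, and promoter sequences are from RefSeq (GRCh38.p14).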

Additional observations from a re-analysis of the deposited data

How the results depend on the processing

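The replicate block moved the counts most. Without it 3 genes passed FDR 0.05 (0 members, 0 of the 106 genes of the decay lists). With it limma passed 885 genes (3 members, 14 list genes), edgeR 977 (3 and 15) and DESeq2 139 (0 and 3), in which BTG2, BTG1 and TOB2 had adjusted p-values of 0.058, 0.168 and 0.332. DESeq2 without the block passed 23 genes (0 and 2). With 1 sample left out, or with the block and 1 pair left out, 2 to 665 genes, 0 to 3 members and 0 to 13 list genes passed. With the block and without pair 1, 2 or 3, the counts were 531, 665 and 456 genes, 3, 3 and 1 members, and 9, 13 and 8 list genes. In the fits without the block that leave out 1 sample, 67 genes passed without isoproterenol replicate 2, and BTG2 passed without untreated replicate 2. BTG3 turned positive without pair 3 (0.024) and without untreated replicate 2 (0.033), untreated replicate 3 (0.014) or isoproterenol replicate 1 (0.047), over a range of -0.12 to 0.047. TOB1 turned positive without pair 3 (0.046) and without isoproterenol replicate 3 (0.066), over a range of -0.13 to 0.066. BTG1, BTG2, TOB2 and the median of the members (0.21 to 0.27) kept their direction under all 21 alternatives, and the count of 3 members without overlap was the same under 5. The gene filters could not alter these fold changes or the overlap. Nor could the limma block on all 6 samples alter the fold changes. Of the 5 settings, only TMM and total-count scaling could have moved the overlap count. The counts for the decay lists under these alternatives were chosen after seeing the data. Why the tools differ with the block was not tested. At 18116816 to 21488793 reads per sample, ZFP36 and ZFP36L2 were too sparse for a test.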
